A study of Mus musculus with 8 samples.

Results

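The genes described here build cholesterol and fatty acids or control that synthesis, and they were followed in cultures of mouse spermatogonial stem cells (SSCs), from which sperm production is renewed. The list named 32 genes by symbol, by their place in the pathways, and all 32 were found among the 55421 gene identifiers of the count table and passed the filter on low counts that left 20477 genes for testing. The members are 7 genes of the mevalonate steps (*Acat2*, *Hmgcs1*, *Mvk*, *Pmvk*, *Mvd*, *Idi1* and *Fdps*), 11 of the squalene and sterol steps (*Fdft1*, *Sqle*, *Lss*, *Cyp51*, *Tm7sf2*, *Msmo1*, *Nsdhl*, *Hsd17b7*, *Ebp*, *Sc5d* and *Dhcr7*), 6 regulators with a sterol carrier among them (*Srebf1*, *Srebf2*, *Scap*, *Insig1*, *Insig2* and *Stard4*), and 8 of the fatty acid steps (*Acly*, *Acss2*, *Acaca*, *Fasn*, *Me1*, *Elovl6*, *Scd1* and *Scd2*).

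Cholesterol is made from acetyl-CoA through mevalonate, isoprenoid units and squalene, and the first ring sterol is then trimmed, reduced and rearranged by a series of enzymes. Fatty acids are made from the same acetyl-CoA, lengthened and given double bonds by elongases and desaturases. The transcription factors encoded by *Srebf1* and *Srebf2* switch on both sets of genes after the escort protein SCAP has carried them out of the endoplasmic reticulum, and the INSIG proteins hold SCAP back when sterols are plentiful.

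All SSC cultures came from the testes of 6-day-old pups of a C57BL/6 x DBA/2 F1 cross and grew on irradiated mouse embryonic fibroblasts of CF1 mice, so each library is bulk RNA in which fibroblast RNA takes part. Veh cultures stayed in complete SSC medium with vehicle and RA cultures received 100 nM retinoic acid, a vitamin A derivative, in the same medium. NR (nutrient restriction) cultures were kept in 10% complete medium and 90% Earle's balanced salt solution (EBSS), a buffered salt solution with glucose, and NRRA cultures received 100 nM retinoic acid in that diluted medium. Each treatment lasted 2 days, and each condition has 2 libraries, which the study describes as independent biological replicates. The question put to these libraries is how the genes of lipid synthesis stood after nutrient restriction, after retinoic acid and after their combination.

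Total counts ran from 19261333 to 30023585 per library, so that 1 CPM (a read count scaled to library size by the TMM method) stood for 19.2 to 31.1 counts, and the members had between 60 and 15913 counts in any library. Of 5 germ cell markers all were measured, with a summed level of 675 and 723 CPM in the Veh libraries and 786 to 943 CPM in the other 6 libraries. In NR against Veh, 4 of 8 markers of undifferentiated spermatogonia were lower and 2 higher. Of 5 markers of differentiating spermatogonia, 3 were higher and 0 lower. Over all tested genes 22.2% were lower and 21.7% higher in that comparison. From Veh to NR the mean of *Etv5* went from 179 to 111 CPM, *Zbtb16* from 164 to 244 and *Stra8* from 1.33 to 14.4. The 10 fibroblast markers summed to 18159 and 18371 CPM under Veh, 29653 and 30936 under NR, 16156 and 15009 under RA and 24719 and 23951 under NRRA. Of the 10, 7 were higher and 2 lower in NR than in Veh. *S100a4*, by which the paper recognized feeder cells, had a mean of 3.15 CPM in Veh and 1.74 CPM in NR. The adipocyte genes *Lep*, *Cfd*, *Plin1*, *Cidec* and *Adipoq* stayed below the filter, *Lep* being at 0 CPM in all libraries, and *Fabp4* fell from a mean of 10.1 CPM in Veh to 4.43 CPM in NR. Of 5 macrophage markers, 2 were higher and 0 lower in NR than in Veh. The mean of *Ptprc* was 3.70 CPM in Veh and 9.50 CPM in NR, that of *Adgre1* 57.5 and 76.3, and that of *Csf1r* 24.2 and 25.7. Of 5 Sertoli cell markers 3 were tested, and of these 1 was higher and 0 lower in NR. The part of fibroblast, macrophage or Sertoli cell RNA in the results below was not tested. In bulk RNA, fewer cells of a type and less RNA of a gene per cell cannot be told apart.

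Nutrient restriction alone lowered most of the list. Of the 32 members, 23 were lower in NR than in Veh at an adjusted p under 0.05 (edgeR's quasi-likelihood test, Benjamini-Hochberg adjustment over all tested genes), 0 were higher and 9 did not pass, and over all tested genes 22.2% were lower and 21.7% higher. Among the 12830 genes with a mean CPM at least that of the lowest member, 31.1% were lower. The median log2 fold change of the members was −0.27, against 0.01 over all genes, and 30 of the 32 values were below 0. The change was spread over the pathways, with 5 of 7 mevalonate genes, 8 of 11 sterol genes, 4 of 6 regulators and 6 of 8 fatty acid genes lower. Most changes were small. Only *Scd1* passed with a fold change of at least 2, a size that 8.29% of all genes reached in either direction. Leaving out each of the 8 libraries in turn left 20 to 24 members lower, and 18 of the 23 passed in every one of these fits. *Fdps* lost the call without replicate 1 of Veh (−0.11, adjusted p = 0.69) or replicate 1 or 2 of NR (adjusted p = 0.086 and 0.27), *Mvd* without replicate 1 of Veh or replicate 1 of NR (adjusted p = 0.35 and 0.36), and *Stard4* without replicate 2 of Veh or replicate 2 of NR (adjusted p = 0.12 and 0.30). *Srebf2* and *Tm7sf2* are given with their values further on.

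The summed level of the 32 members was 4187 and 4120 CPM under Veh, 3292 and 3344 under NR, 3913 and 3756 under RA and 3502 and 3477 under NRRA. The libraries of different conditions did not overlap in this sum, with Veh highest and NR lowest. As a share of all assigned reads, without any scaling, the members took 0.401% and 0.395% under Veh, 0.323% and 0.327% under NR, 0.399% and 0.388% under RA and 0.362% and 0.361% under NRRA. The NR libraries were again the lowest, and on this unscaled share the RA libraries overlapped with Veh. Counted gene by gene, NR had the lowest mean of the 4 conditions for 25 members, NRRA for 5, and RA and Veh for 1 each. Veh had the highest mean for 16 members, NRRA for 8, RA for 7 and NR for 1. A test for any difference among the 4 conditions passed for 29 of the 32 members, where 70.2% of all genes passed, and *Fdps*, *Srebf1* and *Insig2* did not pass it (adjusted p = 0.077, 0.058 and 0.074).

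**Figure D1:**
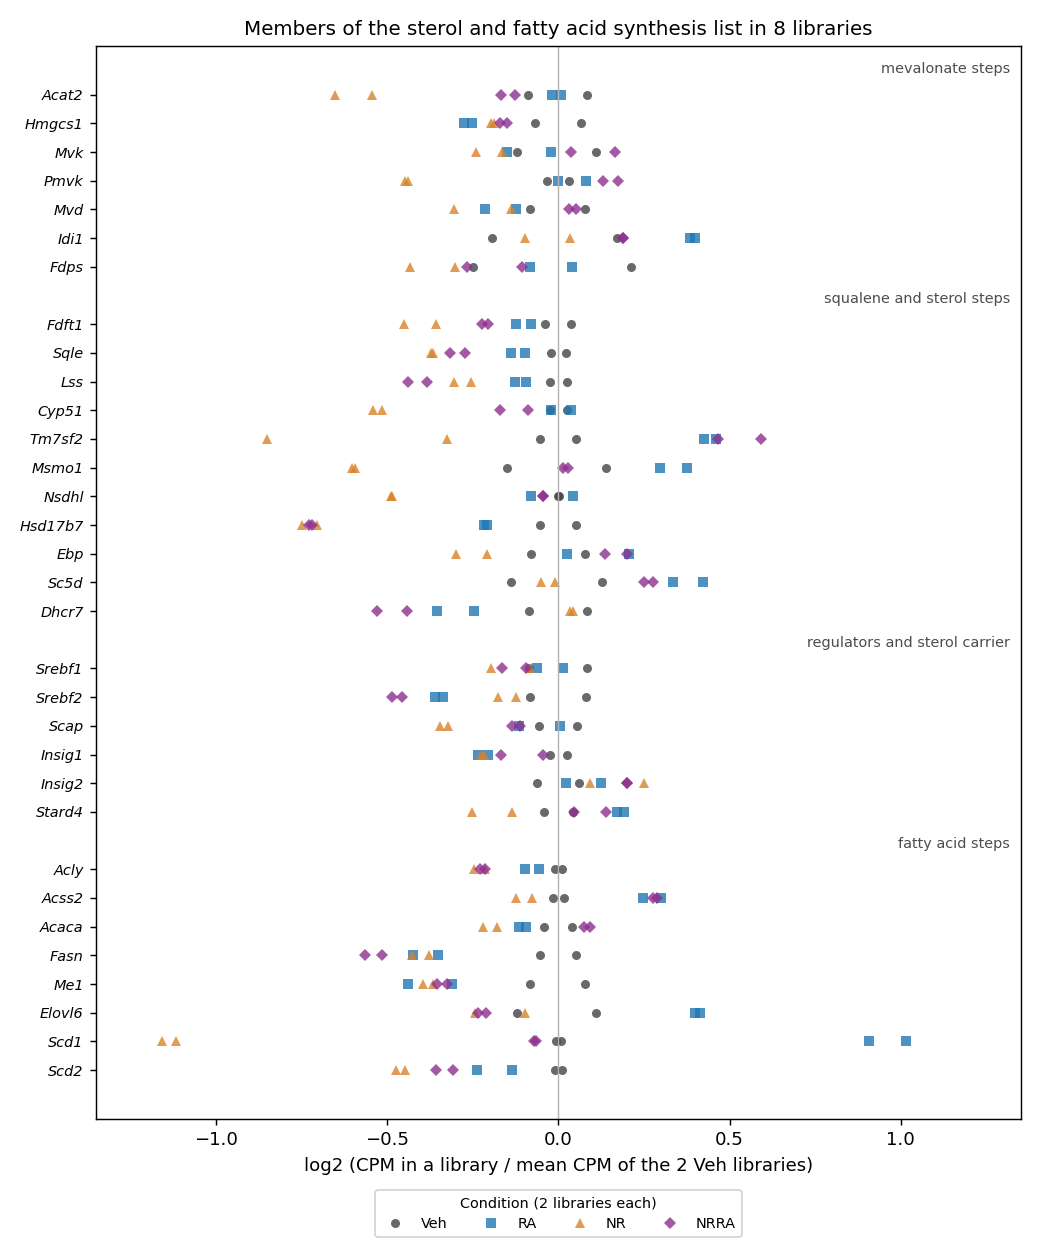
Each row is a member and each point a library, placed at the log2 ratio of its CPM to the mean of the 2 Veh libraries, with shape and colour giving the condition. The NR triangles lie left of 0 for most rows, furthest for *Scd1*, and the RA squares and NRRA diamonds fall on both sides.

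In RA against Veh, in complete medium, 8 members rose, 8 fell and 16 did not pass. These shares, 25% each way, were near those of all genes, of which 19.8% were higher and 23.4% lower. The members that rose were *Scd1*, *Tm7sf2*, *Elovl6*, *Idi1*, *Sc5d*, *Msmo1*, *Acss2* and *Stard4*, by 0.18 to 0.96 on the log2 scale, and of these 3 lost the call without single libraries. They were *Idi1* without replicate 1 of Veh (0.24, adjusted p = 0.068), *Stard4* without replicate 1 of Veh (adjusted p = 0.078) or either RA library (adjusted p = 0.11 and 0.09), and *Tm7sf2*, given further on. The members that fell were *Fasn*, *Me1*, *Srebf2*, *Dhcr7*, *Hmgcs1*, *Insig1*, *Hsd17b7* and *Scd2*, with log2 fold changes between −0.39 and −0.19, and all 8 kept the call without any 1 library. No member reached a fold change of 2, which 7.49% of all genes did. Markers of cell state moved with retinoic acid too, with all 8 markers of undifferentiated spermatogonia lower in RA than in Veh. Of 5 markers of differentiating spermatogonia, 3 were higher in RA and 2 did not pass. *Stra8*, a retinoic acid target among them, had a mean of 1.33 CPM in Veh and 642 CPM in RA. *Sohlh1* had 24.4 CPM in Veh and 23.8 CPM in RA, and *Dnmt3b* 75.2 and 72.8 CPM. The part of these markers in the result was not tested.

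Retinoic acid under nutrient restriction mostly raised the list. Against NR, 17 members were higher in NRRA, 3 were lower (*Dhcr7*, *Srebf2* and *Fasn*) and 12 did not pass, where 21.3% of all genes were higher and 22.1% lower, and 25.1% were higher among the genes expressed at least as highly as the lowest member. The median log2 fold change was 0.20. *Scd1* and *Tm7sf2* rose at least 2-fold, which 8.7% of all genes did in either direction. Of the 17 rises, 13 passed without each library in turn, while *Fdft1* lost the call without replicate 2 of NR (0.13, adjusted p = 0.16), *Mvd* without replicate 1 of NR (0.16, adjusted p = 0.18) and *Mvk* without replicate 2 of NR or of NRRA (adjusted p = 0.084 and 0.081), and *Scd2* is given further on. The fall of *Fasn* was lost without replicate 2 of NR or of NRRA (adjusted p = 0.08 and 0.12).

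Against Veh, NRRA cultures had 16 members lower, 4 higher (*Tm7sf2*, *Acss2*, *Sc5d* and *Insig2*) and 12 that did not pass. The median log2 fold change was −0.13. The lower calls of *Acat2*, *Cyp51*, *Elovl6*, *Scap* and *Srebf1* did not hold when single libraries were left out. Over all genes 28.7% were lower and 30.1% higher in this comparison, and 15.9% changed at least 2-fold, which no member did. Without replicate 2 of Veh, 7 members were higher in place of 4. Against RA, 12 members were lower in NRRA and 2 were higher (*Mvd* and *Acaca*), where 19.4% of all genes were lower and 20.9% higher, and *Scd1* alone fell at least 2-fold, a size reached by 8.29% of all genes. This last comparison moved with single libraries. The lower calls of *Acly*, *Cyp51*, *Dhcr7*, *Fasn*, *Scd2*, *Sqle* and *Srebf2* and the higher call of *Mvd* did not hold when single libraries were left out. Without replicate 1 of RA 6 members were lower, and without replicate 2 of NRRA 7 were. The number higher was 5 without either Veh library and 1 without replicate 2 of RA or without replicate 2 of NRRA.

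The sequence just before a gene's start is where factors such as the SREBPs and NF-Y bind, and it is shown for 4 members, *Hmgcs1* with the sterol element, *Mvk* with the most CCAAT matches, and *Hsd17b7* and *Tm7sf2*, whose values in NR are described further on. Of the 32 members, 26 had an entry in the RefSeq promoter windows (build GRCm38.p6, where mm10, on which the reads were counted, is GRCm38; 250 bases before to 50 after a start), with no entry for *Scd1*, *Scd2*, *Fdft1*, *Fdps*, *Sqle* and *Stard4*. The 250 bases before the start are printed 5′ to 3′ on the gene's strand, for *Hmgcs1* at chr13:119690101-119690350 (plus strand), *Mvk* at chr5:114444019-114444268 (plus strand), *Hsd17b7* at chr1:169969206-169969455 (minus strand) and *Tm7sf2* at chr19:6067851-6068100 (minus strand). Capitals mark every match, on either strand, to the sterol regulatory element core TCACNCCAC, the CCAAT box and the E box CACGTG.
Hmgcs1: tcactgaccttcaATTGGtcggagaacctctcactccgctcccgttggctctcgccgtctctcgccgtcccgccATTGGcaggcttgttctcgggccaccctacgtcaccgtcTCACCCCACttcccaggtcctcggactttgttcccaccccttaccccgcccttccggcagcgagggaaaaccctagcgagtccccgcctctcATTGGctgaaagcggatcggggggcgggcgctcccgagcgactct
Mvk: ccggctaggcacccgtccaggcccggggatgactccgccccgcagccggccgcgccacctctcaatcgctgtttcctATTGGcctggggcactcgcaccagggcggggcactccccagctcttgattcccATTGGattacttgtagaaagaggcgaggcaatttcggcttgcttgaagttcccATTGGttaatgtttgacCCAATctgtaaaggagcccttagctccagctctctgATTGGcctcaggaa
Hsd17b7: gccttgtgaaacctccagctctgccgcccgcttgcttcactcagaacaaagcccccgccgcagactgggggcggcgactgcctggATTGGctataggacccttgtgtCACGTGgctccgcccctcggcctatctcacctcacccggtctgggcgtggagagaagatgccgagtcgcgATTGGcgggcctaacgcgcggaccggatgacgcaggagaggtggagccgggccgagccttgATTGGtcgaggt
Tm7sf2: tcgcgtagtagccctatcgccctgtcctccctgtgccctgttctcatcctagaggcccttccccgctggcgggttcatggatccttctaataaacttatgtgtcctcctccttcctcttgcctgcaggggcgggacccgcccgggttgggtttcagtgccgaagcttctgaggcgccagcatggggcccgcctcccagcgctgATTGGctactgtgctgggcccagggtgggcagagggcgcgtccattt
The *Hmgcs1* window holds TCACCCCAC, beginning 137 bases before the start, with ATTGG, the reverse complement of CCAAT, on both sides of it. *Mvk* has 5 CCAAT matches in its window and *Hsd17b7* has 3 with an E box between them, whereas *Tm7sf2* has 1. Counted over the whole 300-base windows, 22 of the 26 members had a CCAAT match in at least 1 window, 5 had an E box (*Dhcr7*, *Hsd17b7*, *Insig1*, *Sc5d* and *Scap*) and *Hmgcs1* alone had the sterol element as spelled here. By window, 65.7% of the 35 windows of members held CCAAT against 37.4% of all 32851 windows, and 17.1% held the E box against 7.15%. The windows of *Scap* overlap and count the same E box site more than once. The sterol element was in 1 window of members, 2.86% against 1.24%. None of the printed matches overlaps another. A match is a run of letters and no measurement of binding.

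The mevalonate genes fell in NR by a median of 0.21 on the log2 scale, with all 7 values below 0. *Acat2*, whose product condenses acetyl-CoA at the head of the route, had 59.5 and 52.8 CPM under Veh, 38.5 and 35.7 under NR, 55.4 and 56.5 under RA and 50.1 and 51.4 under NRRA. Its NR libraries lay below all 6 others, with a log2 fold change against Veh of −0.60 ± 0.07 (SE, adjusted p = 2.4e-08), and NRRA stood 0.46 ± 0.06 above NR (adjusted p = 1.5e-06). *Pmvk*, phosphomevalonate kinase, had 9.76 and 9.33 CPM under Veh, 7.03 and 6.99 under NR, 10.1 and 9.54 under RA and 10.8 and 10.4 under NRRA, so NR was again the lowest condition while NRRA was the highest. *Hmgcs1*, HMG-CoA synthase, was at 214 and 235 CPM in Veh and between 185 and 202 CPM in the other 6 libraries. Its RA value against Veh was −0.26 ± 0.05 (adjusted p = 4.2e-05) and its NR value −0.19 ± 0.05 (adjusted p = 0.0012), with 0.03 ± 0.05 between NRRA and NR (adjusted p = 0.61). Of the remaining mevalonate genes, *Mvd* (diphosphomevalonate decarboxylase) and *Fdps* (farnesyl diphosphate synthase) passed in NR at −0.21 and −0.38, *Mvk* (mevalonate kinase) did not at −0.21, and *Idi1*, which isomerizes isopentenyl diphosphate, had −0.03. *Idi1* instead rose in RA by 0.39 ± 0.10 (adjusted p = 0.0022). The counts of *Acat2* are uncertain, since *Acat3* is 97.6% identical over 65.6% of its transcript, and so are those of *Fdps*, which has copies in other genes and shares 26.7% of its exon bases with *Gm43738* on the same strand.

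The squalene and sterol genes fell in NR by a median of 0.41 on the log2 scale, and *Dhcr7* was the exception in sign. *Hsd17b7*, a sterol keto-reductase, had 86.0 and 92.5 CPM under Veh, 53.1 and 54.7 under NR, 76.8 and 77.2 under RA and 53.9 and 54.2 under NRRA. The libraries of both restricted conditions overlapped at about the same level, below all Veh and RA libraries, with −0.73 ± 0.06 in NR against Veh (adjusted p = 2.7e-11) and −0.51 ± 0.05 in NRRA against RA (adjusted p = 1.2e-08). The value of NRRA against NR was 0.00 ± 0.06 (adjusted p = 0.99).

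*Cyp51*, the sterol demethylase, followed another order, with 91.7 and 95.1 CPM under Veh, 65.4 and 64.2 under NR, 95.8 and 92.1 under RA and 87.9 and 83.0 under NRRA. NR lay apart from the other conditions, at −0.53 ± 0.05 against Veh (adjusted p = 7.1e-09), and NRRA was 0.40 ± 0.05 above NR (adjusted p = 5.9e-07). *Nsdhl*, the dehydrogenase that acts after it, had 48.9 and 48.9 CPM under Veh, 34.8 and 34.9 under NR, 50.4 and 46.3 under RA and 47.4 and 47.5 under NRRA, so only NR stood apart. *Msmo1*, the sterol methyl oxidase of the same reaction block, had 47.5 and 58.1 CPM under Veh, 34.98 and 34.7 under NR, 68.6 and 64.8 under RA and 53.3 and 53.8 under NRRA. It fell by 0.60 ± 0.07 on the log2 scale in NR and rose by 0.34 ± 0.07 in RA (adjusted p = 2.0e-07 and 0.00026), and its NRRA libraries lay between the Veh libraries.

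*Tm7sf2*, a sterol reductase, was the lowest of the members, with 4.26 and 3.96 CPM under Veh, 3.28 and 2.28 under NR, 5.66 and 5.51 under RA and 5.68 and 6.20 under NRRA. The libraries with retinoic acid were all above those without it, and NRRA was 2.18-fold above NR (log2 1.12 ± 0.16, adjusted p = 2.5e-06). Its lower value in NR against Veh, −0.59 ± 0.19 (adjusted p = 0.011), rested on single libraries, since it became −0.31 (adjusted p = 0.29) without replicate 2 of NR and −0.52 (adjusted p = 0.078) without replicate 1 of Veh. Its rise in RA, 0.44 ± 0.16 (adjusted p = 0.030), did not pass without replicate 2 of Veh (adjusted p = 0.10) without replicate 1 or 2 of RA (adjusted p = 0.085 and 0.094) or with DESeq2 (adjusted p = 0.13). *Tm7sf2* shares 12.1% of its exon bases with *Vps51* on the same strand, so a share of these few reads is uncertain.

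*Dhcr7*, the last reductase of the route, had 67.1 and 59.7 CPM under Veh, 64.8 and 65.2 under NR, 53.4 and 49.6 under RA and 43.9 and 46.6 under NRRA. It was lower in the libraries with retinoic acid, by 0.31 ± 0.06 on the log2 scale in complete medium (adjusted p = 0.0003), and NRRA against NR had −0.52 ± 0.06 (adjusted p = 9.8e-08), while NR against Veh had 0.04 ± 0.06 (adjusted p = 0.67). *Sc5d*, the sterol desaturase that acts just before it, went the other way with retinoic acid, with 65.9 and 79.2 CPM under Veh, 70.0 and 72.0 under NR, 97.2 and 91.4 under RA and 87.9 and 86.3 under NRRA. It rose by 0.38 ± 0.06 in RA against Veh (adjusted p = 2.7e-05) and by 0.29 ± 0.06 in NRRA against NR (adjusted p = 0.00035). *Fdft1* (squalene synthase), *Sqle* (squalene epoxidase) and *Lss* (lanosterol synthase), which act in a row, fell in NR by 0.41, 0.37 and 0.28 on the log2 scale. *Ebp*, a sterol isomerase, did not pass in NR (−0.26 ± 0.11, adjusted p = 0.068) and was 0.43 ± 0.10 higher in NRRA than in NR (adjusted p = 0.0016).

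**Figure D2:**
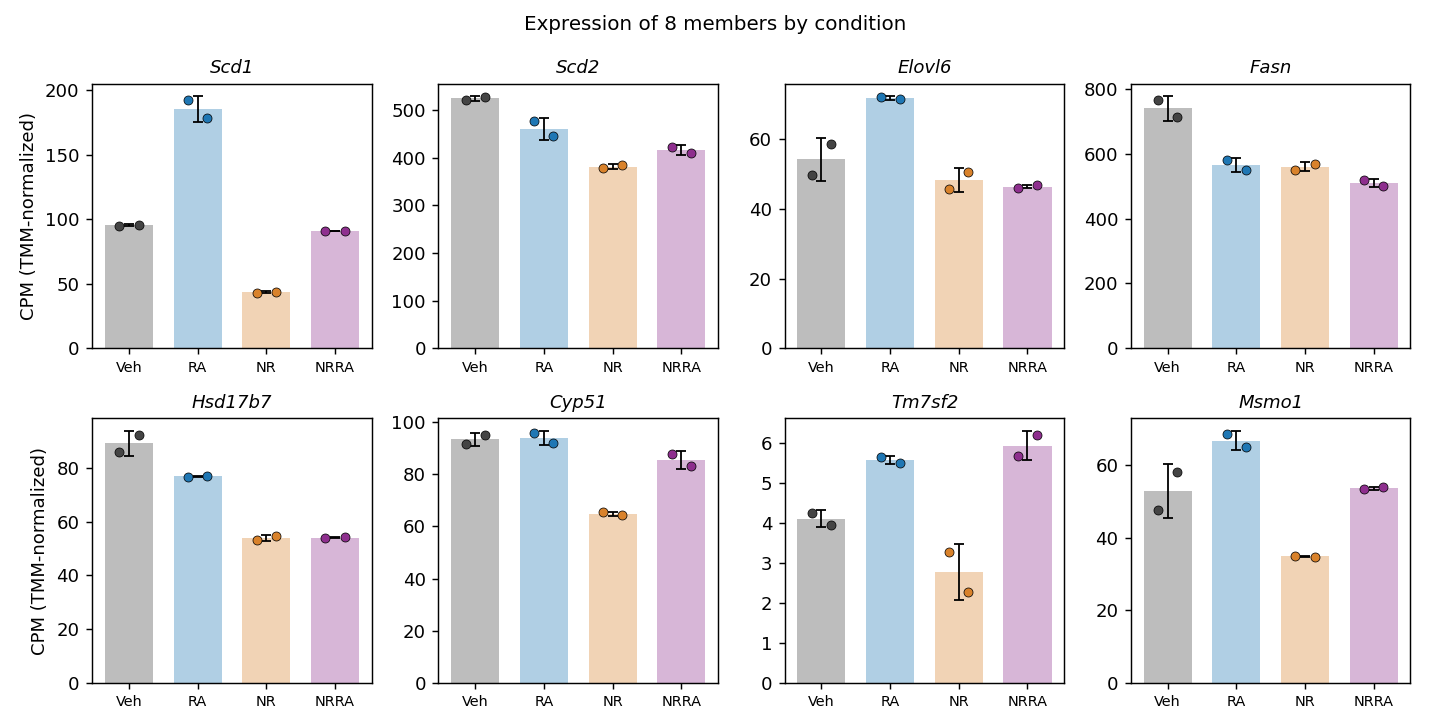
Bars give the mean CPM of the 2 libraries of a condition, points the libraries and error bars the SD, on axes that start at 0. *Scd1* has RA at the top and NR at the bottom, and *Hsd17b7* is lower in both restricted conditions. *Cyp51* is lowest in NR, with NRRA less far below Veh and RA.

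Among the regulators, *Srebf2*, the main activator of sterol genes, had 355 and 317 CPM under Veh, 297 and 308 under NR, 266 and 262 under RA and 245 and 240 under NRRA. The 4 conditions did not overlap, and the libraries with retinoic acid were below those without it. RA against Veh had −0.35 ± 0.05 (adjusted p = 9.3e-07) and NRRA against NR had −0.32 ± 0.05 (adjusted p = 2.3e-06), and their difference, 0.03 ± 0.07, did not pass (adjusted p = 0.85). The NR value against Veh was smaller at −0.15 ± 0.05 (adjusted p = 0.010) and did not pass without replicate 1 of Veh (−0.05, adjusted p = 0.38) or replicate 1 of NR (−0.10, adjusted p = 0.21), and the NRRA value against RA, −0.12 ± 0.05 (adjusted p = 0.037), did not pass without any 1 of the RA or NRRA libraries (adjusted p = 0.086 to 0.21) or without the filter on low counts (adjusted p = 0.061).

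*Srebf1*, which acts more on fatty acid genes, had 125 and 112 CPM under Veh, 103 and 112 under NR, 120 and 113 under RA and 111 and 106 under NRRA. Its conditions overlapped, and the value nearest to a call in NR was −0.14 ± 0.06 (adjusted p = 0.051), which passed at −0.21 (adjusted p = 0.0015) without replicate 2 of Veh. In NRRA against Veh it passed at −0.13 ± 0.06 (adjusted p = 0.047) and lost that call without any 1 of 7 libraries, the lowest value being −0.04 (adjusted p = 0.56) without replicate 1 of Veh, and also with DESeq2 (adjusted p = 0.052), without the filter on low counts (adjusted p = 0.051), with only the conditions compared (adjusted p = 0.060) and with GC and length trends removed (adjusted p = 0.60). *Srebf1* and *Srebf2* therefore differed in their response to RA in complete medium as measured, −0.03 ± 0.06 against −0.35 ± 0.05, a difference between genes that was not tested.

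*Insig1*, itself a target of the SREBPs, had 125 and 121 CPM under Veh, 106 and 105 under NR, 107 and 105 under RA and 110 and 119 under NRRA. All 6 treated libraries lay below both Veh libraries, with −0.22 ± 0.05 both for RA and for NR against Veh (adjusted p = 0.00082 and 0.00075). In NRRA against Veh, with means of 114 and 123 CPM, *Insig1* did not pass. *Insig2*, its paralogue, had 22.3 and 24.3 CPM under Veh, 24.9 and 27.7 under NR, 23.7 and 25.4 under RA and 26.8 and 26.8 under NRRA. Its NR value against Veh, the highest of the members, did not pass (0.18 ± 0.08, adjusted p = 0.068) and passed without replicate 2 of Veh (0.25, adjusted p = 0.023) or without replicate 1 of NR (0.27, adjusted p = 0.028). In NRRA against Veh *Insig2* rose by 0.20 ± 0.08 (adjusted p = 0.026), a call lost without replicate 1 of Veh (0.14, adjusted p = 0.18) without replicate 1 or 2 of NRRA (adjusted p = 0.085 and 0.095), with DESeq2 (adjusted p = 0.15) or with GC and length trends removed (adjusted p = 0.16). *Scap* fell in NR by 0.34 ± 0.05 on the log2 scale (adjusted p = 1.2e-06), and *Stard4*, a sterol transfer protein, by 0.20 ± 0.07 (adjusted p = 0.018).

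The fatty acid genes fell in NR by a median of 0.31 on the log2 scale, with all 8 values below 0. Their range was the widest of the 4 role groups through *Scd1* alone. *Scd1*, a desaturase that makes oleate from stearate, had 94.6 and 95.6 CPM under Veh, 42.6 and 43.8 under NR, 192 and 178 under RA and 90.5 and 90.9 under NRRA. RA was above Veh and NR was below it, and the NRRA libraries lay just under Veh. *Scd1* was 2.20-fold lower in NR than in Veh (log2 −1.14 ± 0.06, adjusted p = 2.8e-15) and 1.95-fold higher in RA (log2 0.96 ± 0.05, adjusted p = 2.0e-14), and it was 2.10-fold higher in NRRA than in NR (log2 1.07 ± 0.05, adjusted p = 8.6e-15). NRRA against Veh had −0.07 ± 0.05 (adjusted p = 0.26). The difference between its RA values in the 2 media, 0.11 ± 0.07, did not pass (adjusted p = 0.39).

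*Scd2*, the neighbouring paralogue on chromosome 19 (*Scd2* at 44293674 to 44306864 on the plus strand, *Scd1* at 44394455 to 44407879 on the minus strand, GRCm38), behaved otherwise. It had 522 and 528 CPM under Veh, 378 and 385 under NR, 477 and 445 under RA and 424 and 409 under NRRA. It fell in NR by 0.46 ± 0.04 on the log2 scale (adjusted p = 5.6e-10) and in RA by 0.19 ± 0.04 (adjusted p = 0.00049), where *Scd1* rose. Per kilobase of exon, *Scd2* had 96.1 CPM in Veh, the highest of the members, and *Scd1* had 19.4. The rise of *Scd2* in NRRA against NR, 0.13 ± 0.04 (adjusted p = 0.013), did not pass without replicate 1 of NR (adjusted p = 0.18), replicate 2 of NR (adjusted p = 0.073) or replicate 1 of NRRA (adjusted p = 0.14), or with DESeq2 (adjusted p = 0.066).

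*Fasn*, fatty acid synthase, had 768 and 714 CPM under Veh, 551 and 570 under NR, 581 and 552 under RA and 518 and 501 under NRRA. Every treated library was below both Veh libraries, with log2 fold changes against Veh of −0.40 ± 0.04 for NR, −0.39 ± 0.04 for RA and −0.54 ± 0.04 for NRRA (adjusted p = 9.1e-09, 2.4e-08 and 1.7e-11). *Me1*, malic enzyme, which supplies NADPH for the same synthesis, was likewise below Veh in all 3 treated conditions, with −0.38 ± 0.06 in NR, −0.38 ± 0.06 in RA and −0.34 ± 0.06 in NRRA against Veh (adjusted p = 4.4e-06, 5.5e-06 and 9.1e-06). *Elovl6*, which lengthens palmitate, had 49.9 and 58.5 CPM under Veh, 45.8 and 50.6 under NR, 72.2 and 71.5 under RA and 46.1 and 46.8 under NRRA. Only RA stood above the rest, by 0.41 ± 0.07 on the log2 scale against Veh (adjusted p = 1.4e-05). *Acly*, ATP citrate lyase, fell in NR by 0.23 ± 0.04 (adjusted p = 2.3e-05), and *Acaca*, acetyl-CoA carboxylase, by 0.20 ± 0.05 (adjusted p = 0.00086). *Acss2*, which makes acetyl-CoA from acetate, did not pass in NR (−0.10 ± 0.06, adjusted p = 0.20) and was higher with retinoic acid in both media, by 0.27 ± 0.06 and 0.38 ± 0.06 (adjusted p = 0.00046 and 3.9e-06). The counts of *Acaca*, *Me1* and *Fdft1* are uncertain, because each has a processed pseudogene of near-identical sequence.

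**Figure D3:**
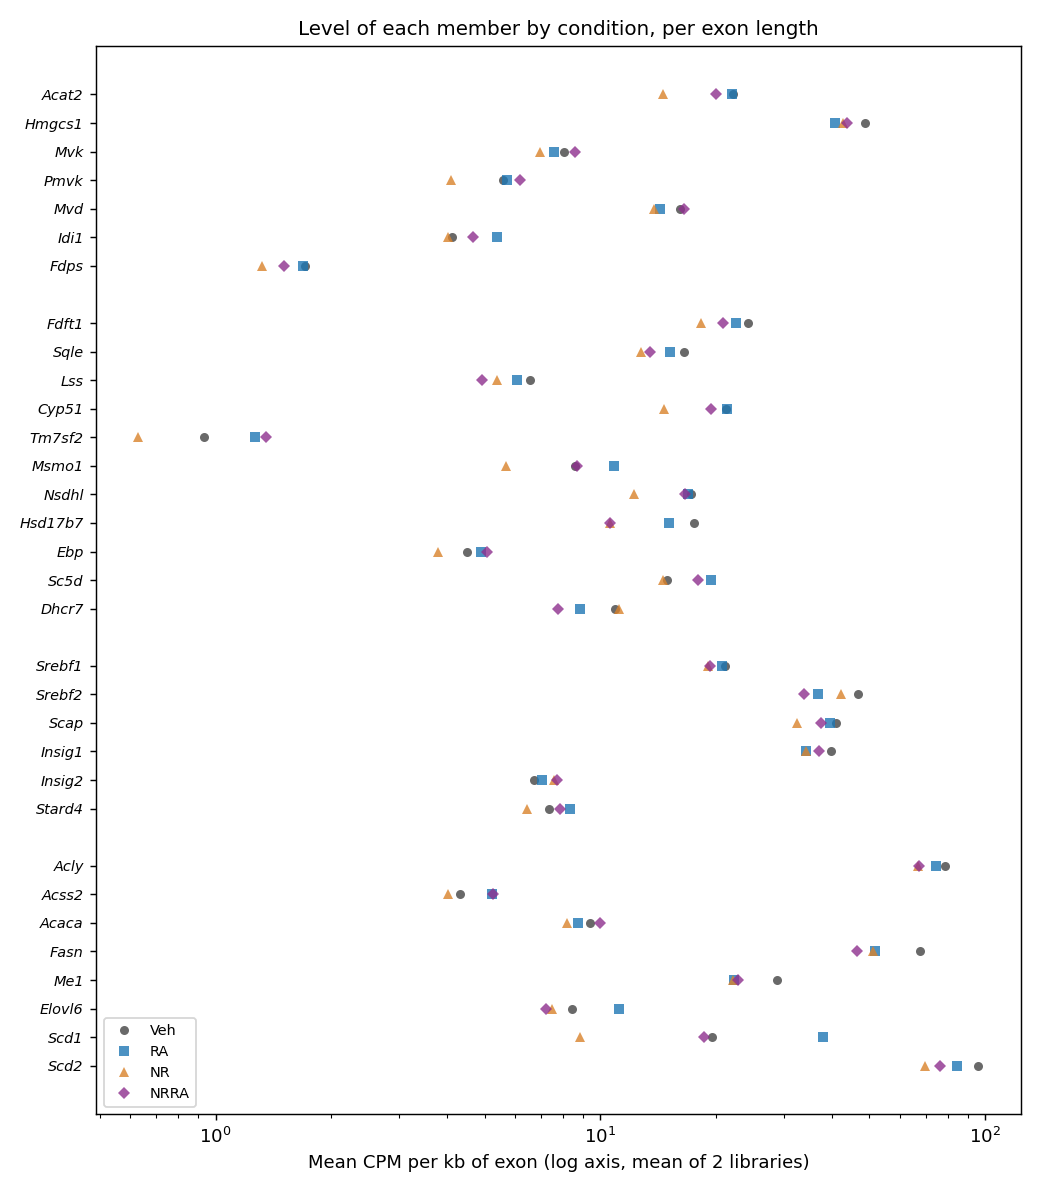
Each row is a member and each point the mean CPM per kilobase of exon in a condition, on a log axis. *Scd2* and *Acly* are highest in Veh, at 96.1 and 78.5, and *Tm7sf2* lowest, at 0.933.

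The interaction of both treatments, the log2 fold change of NRRA against NR minus that of RA against Veh, was above 0 for 26 of the 32 members. It passed above 0 for 14 members and below 0 for 1, where 6.37% of all genes passed above 0 and 6.58% below, and 9.29% passed above 0 among the genes expressed at least as highly as the lowest member. By role it passed above 0 for 5 of 7 mevalonate genes (*Acat2*, *Hmgcs1*, *Mvk*, *Pmvk* and *Mvd*), 3 of 11 sterol genes (*Fdft1*, *Cyp51* and *Nsdhl*), 2 of 6 regulators (*Scap* and *Insig1*) and 4 of 8 fatty acid genes (*Acaca*, *Fasn*, *Me1* and *Scd2*). *Elovl6* was the member below 0, at −0.47 ± 0.09 (adjusted p = 0.001), with a value for retinoic acid of 0.41 ± 0.07 in complete medium and −0.06 ± 0.07 under nutrient restriction. For *Acat2*, *Cyp51* and *Nsdhl*, retinoic acid gave −0.01, 0.01 and −0.02 in complete medium and 0.46, 0.40 and 0.44 under restriction. Without replicate 2 of RA, the library whose absence cost *Fdft1*, *Mvd*, *Mvk*, *Pmvk* and *Scap* the call (adjusted p = 0.054, 0.067, 0.18, 0.072 and 0.066), 9 members passed above 0 in place of 14, and 8 of the 14 passed without each library in turn. Below 0, 3 members passed without replicate 2 of Veh and 2 without replicate 1 of Veh.

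Side by side over the members, with no library in common, the log2 fold changes of retinoic acid in complete medium and under restriction had a Pearson correlation across genes of 0.71 (0.61 without *Scd1*), and over all genes it was 0.69. Those of nutrient restriction without and with retinoic acid had 0.54 (0.24 without *Scd1*), and over all genes 0.67. Genes are not independent replicates, so these are descriptions. 10 members were lower with restriction in both settings and 0 were higher in both, where 13.8% of all genes were lower in both and 13.1% higher in both. These counts rest in part on the NRRA against RA calls, which moved with single libraries. 6 members rose with retinoic acid in both media (*Scd1*, *Tm7sf2*, *Msmo1*, *Sc5d*, *Acss2* and *Stard4*) and 3 fell in both (*Fasn*, *Srebf2* and *Dhcr7*), where 12.6% of all genes rose in both and 15.3% fell in both.

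**Figure D4:**
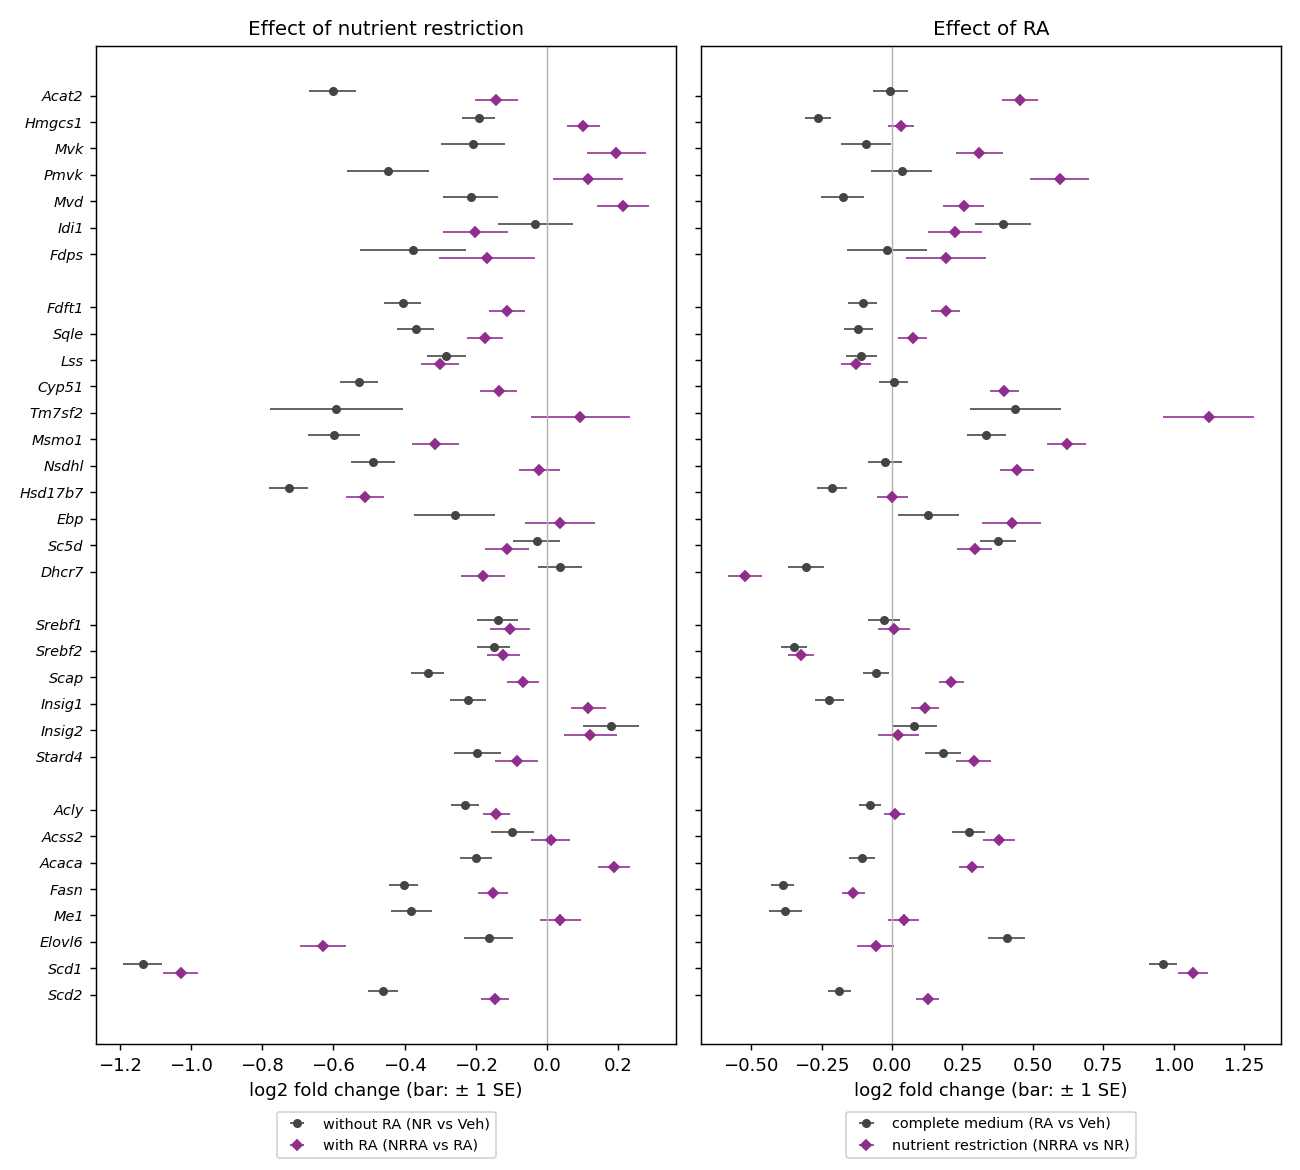
Points are log2 fold changes with bars of 1 SE either side, for nutrient restriction without and with retinoic acid (left) and for retinoic acid in complete medium and under restriction (right). On the left the points without retinoic acid lie mostly to the left of those with it, and on the right *Scd1* is near 1 in both media while *Acat2*, *Cyp51* and *Nsdhl* are near 0 only in complete medium.

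Other genes of lipid metabolism were counted in 3 lists, and from a list of further sterol and isoprenoid genes *Tmem97*, a sterol-regulated membrane protein, had −0.27 ± 0.06 in NR against Veh (adjusted p = 0.0013). Of 10 further fatty acid synthesis genes that were tested, 7 were lower and 1 higher in NR than in Veh, beside the 22.2% lower and 21.7% higher of all genes that hold for each of these lists. The one higher was *Mlxipl*, which encodes the glucose-responsive activator ChREBP, with 15.1 and 13.4 CPM under Veh, 23.4 and 22.9 under NR, 20.5 and 21.4 under RA and 31.8 and 32.3 under NRRA. It rose by 0.69 ± 0.08 in NR and by 1.17 ± 0.08 in NRRA against Veh (adjusted p = 1.6e-07 and 1.3e-12). *Mid1ip1*, whose product promotes polymerization of acetyl-CoA carboxylase, had 49.6 and 49.1 CPM under Veh, 23.0 and 22.8 under NR, 74.0 and 78.9 under RA and 32.4 and 35.3 under NRRA. Its libraries ranked by condition as those of *Scd1* at both ends, with RA at the top and NR at the bottom, and its log2 fold changes against Veh were −1.11 ± 0.07 for NR and 0.63 ± 0.06 for RA (adjusted p = 3.6e-13 and 2.1e-09). *Acacb*, the mitochondrial acetyl-CoA carboxylase, had −0.48 ± 0.06 in NR and −1.33 ± 0.07 in NRRA against Veh (adjusted p = 8.8e-07 and 3.7e-15).

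Of 14 genes of fatty acid oxidation, 6 were lower and 1 higher in NR than in Veh, a median of −0.10. *Cpt1a*, the gate of fatty acid entry into mitochondria, had 299 and 296 CPM under Veh, 224 and 230 under NR, 145 and 139 under RA and 124 and 120 under NRRA. It was lower with retinoic acid in both media, at −1.07 ± 0.04 against Veh and −0.90 ± 0.04 against NR (adjusted p = 2.0e-16 and 4.2e-15). In NRRA against Veh 4 of the 14 were higher and 7 lower, where 30.1% of all genes were higher and 28.7% lower. *Ppara* rose there by 1.68 on the log2 scale, from a mean of 0.457 CPM in Veh to 1.47 CPM in NRRA, with only 9 to 44 counts per library. Of 7 genes of sterol efflux and the sterol-sensing LXR receptors, 4 were higher and 1 lower in NR. *Abca1*, the cholesterol exporter, had 86.2 and 103 CPM under Veh, 242 and 252 under NR, 102 and 99.97 under RA and 245 and 251 under NRRA. It was 2.62-fold higher in NR than in Veh (log2 1.39 ± 0.06, adjusted p = 5.9e-17), and *Mylip*, an LXR target that marks lipoprotein receptors for breakdown, rose by 0.80 ± 0.09 (adjusted p = 5.8e-08). The list did not move as a whole, since *Lpcat3*, the 1 lower gene, had means of 78.6 CPM in Veh and 61.9 CPM in NR. *Abcg1* had 41.1 and 41.5 CPM. The fibroblast marker sum moved with *Abca1* and against the members of the synthesis list in NR, and so did the germ cell marker sum. The part of either in these values was not tested.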

How the data were processed

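RNA of 8 libraries of SSC cultures (Veh, RA, NR and NRRA, 2 each) was analysed. The sample labels gave each library's condition and replicate number. Per the study's methods, poly(A) RNA was captured from 1 µg of total RNA for stranded libraries. The labels name another library kit than the methods. Per the submitters' processing notes, reads were processed with bcl2fastq, STAR 2.6.1c and featureCounts 1.6.4 on mm10. The strand setting of the counting is not given in the sources used here. The authors deposited raw counts, whole numbers of reads per gene without normalization. All 8 columns were matched to libraries, and 0 columns had no sample.

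Counts were filtered with filterByExpr, normalized with TMM and fitted with edgeR 4.0.16 (R 4.3.3) by the quasi-likelihood model with 1 coefficient per condition over all 8 libraries (4 residual degrees of freedom). The F test was adjusted by Benjamini-Hochberg over 20477 genes in each comparison. The standard error is the absolute log2 fold change divided by the square root of F. The model was tested on simulated data. DESeq2 1.42.0, RLE size factors, no filter, a replicate block, removal of GC and length trends, fits of the compared conditions alone, a fold change of at least 2 and leaving out each library were the alternatives. GENCODE M21 (GRCm38) held 55240 of the 55421 identifiers and gave exon lengths, overlaps and, with BLAST 2.17.0, near-identical copies (at least 90% identity over at least 30% of the transcript). Promoter windows came from RefSeq. Figures were drawn with matplotlib 3.10.9. Overlaps of 5% or more of exon bases with another gene touched 7 members, on the same strand for *Fdps* and *Tm7sf2*, and on the opposite strand, where counting without the strand could mix reads, for *Hmgcs1*, *Idi1*, *Fdft1*, *Scap* and *Acss2*.

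The 32 members and the other lists were chosen with earlier results of these data known, so they support no claim beyond their own values. All members are accounted for. Values of each library are given for members that passed with a fold of at least 2 and for the pairs *Insig1* and *Insig2*, *Srebf1* and *Srebf2*, and *Scd1* and *Scd2*. *Acat2*, *Pmvk*, *Hsd17b7*, *Cyp51*, *Nsdhl*, *Msmo1*, *Dhcr7*, *Sc5d*, *Fasn*, *Hmgcs1* and *Elovl6* were added after their values were seen. From the other lists only some genes are named, and these are not in every case those with the largest changes in NR or NRRA against Veh. *Lpcat3*, *Abcg1* and *Ppara* were added after their values were seen. Counts over the list of other sterol and isoprenoid genes are not reported here. Same-numbered libraries did not deviate together (correlations of −0.033 to 0.023, and of −0.116 to 0.187 over genes of at least 10 CPM), so replicate numbers were not used as pairs. The libraries of a condition differed by more than sampling noise (chi-square per gene of 3.93 for Veh, 2.12 for RA, 1.58 for NR and 1.73 for NRRA). The spread beyond sampling noise (biological coefficient of variation) was 3.35%. The p-values rest on this small spread between 2 libraries per condition.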

Additional observations from a re-analysis of the deposited data

Results flagged for a closer look

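For 15 of the 32 members the effect of retinoic acid differed between complete and diluted medium by the interaction test (edgeR's quasi-likelihood test, adjusted p under 0.05 over all genes). Over all tested genes 6.37% passed above 0 and 6.58% below. The log2 fold change of NRRA against NR minus that of RA against Veh was 0.46 for *Acat2* (adjusted p = 0.00066), 0.29 for *Hmgcs1* (0.0024), 0.40 for *Mvk* (0.027), 0.56 for *Pmvk* (0.013) and 0.43 for *Mvd* (0.0070) among the mevalonate genes. It was 0.29 for *Fdft1* (0.0073), 0.39 for *Cyp51* (0.00049) and 0.47 for *Nsdhl* (0.00033) among the sterol genes, and 0.27 for *Scap* (0.0056) and 0.34 for *Insig1* (0.0015) among the regulators. Among the fatty acid genes it was 0.39 for *Acaca* (0.00010), 0.25 for *Fasn* (0.0041), 0.42 for *Me1* (0.00058), 0.31 for *Scd2* (0.00034) and −0.47 for *Elovl6* (0.0010). Leaving out single libraries ended the calls of *Fasn* (replicate 1 of NR, adjusted p = 0.11), *Fdft1* (replicate 2 of NR or of RA), *Mvd* (replicate 1 of Veh, 2 of RA or 1 of NR), *Mvk* (the same or replicate 2 of NR or NRRA), *Pmvk* (replicate 1 of Veh, 2 of RA, or 1 or 2 of NR) and *Scap* (replicate 2 of RA, or 1 or 2 of NR).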

How the results depend on the processing

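Over the 6 tests the 32 members gave 108 calls at an adjusted p under 0.05. DESeq2 lost 13 and gained 0 of them, RLE size factors lost 0 and gained 6, no filter lost 7 and gained 4, and removal of GC and length trends lost 8 and gained 22. No call turned its direction in these fits, and the median over all genes moved by at most 0.04. Fitting only the conditions compared lost 6 and gained 11. With the replicate block, 24 members were lower in NR than in Veh in place of 23, *Elovl6* being added at an adjusted p of 0.041, and the block changed no other call. Asking also for a fold of at least 2 left 1 member lower and 0 higher in NR vs Veh, 0 and 0 in RA vs Veh and in NRRA vs Veh, 1 lower and 0 higher in NRRA vs RA, 2 higher and 0 lower in NRRA vs NR, and 0 and 0 in the interaction. In NRRA vs RA, 1 member was higher with DESeq2, 4 without the filter and 5 with only the conditions compared, in place of 2. With GC and length trends removed, 5 members were lower in NRRA vs NR in place of 3, and 2 were below 0 in the interaction in place of 1. Leaving out single libraries gave 0 to 1 higher and 20 to 24 lower in NR vs Veh, 6 to 8 higher and 8 to 9 lower in RA vs Veh, 3 to 7 higher and 13 to 16 lower in NRRA vs Veh, 1 to 5 higher and 6 to 18 lower in NRRA vs RA, 14 to 19 higher and 2 to 4 lower in NRRA vs NR, and 9 to 14 above and 1 to 3 below 0 in the interaction.

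Values near 0 changed sign. *Insig2* in NRRA vs NR was −0.036 with GC and length trends removed and −0.068 to 0.094 without single libraries, and its interaction −0.17 to 0.0013. *Srebf1* in RA vs Veh was 0.11 with GC and length trends removed (adjusted p = 0.034), 0.0059 with only the conditions compared and −0.093 to 0.082 without single libraries. *Srebf1* in NRRA vs NR was −0.010 with DESeq2, −0.011 with RLE size factors and −0.065 to 0.054 without single libraries. With GC and length trends removed the interaction was −0.063 for *Srebf1* and −0.061 for *Srebf2*, and without single libraries −0.092 to 0.084 for *Srebf1* and −0.095 to 0.074 for *Srebf2*. The cause was not tested. With 2 libraries per condition and 60 to 193 counts for *Tm7sf2*, the lowest members have the widest errors.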
